A study of Mus musculus with 10 samples.

Results

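The 39 genes described here encode the proteins of the skeletal muscle contractile apparatus and of the calcium machinery that switches it on. They were taken by gene name from the 36009 genes measured in resected CT26 tumors, as a list that was named with earlier results of these data known. By fiber type they comprise 14 fast, 5 slow and 2 developmental genes, and 18 that both fiber types use. All 39 were found, and all 39 passed the filter on low counts.

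CT26 is a mouse colorectal carcinoma cell line. The tumors grew under the skin of wild-type female BALB/c mice, and most of the bulk of each was removed at surgery. RNA came from that removed part. A hydrogel carrying poly(I:C), a synthetic double-stranded RNA that mimics viral RNA, was then placed on the tumor left behind. Every tumor was therefore untreated when sampled, and groups follow the later outcome, with 6 responders, whose tumors regressed completely, and 4 non-responders, whose tumors grew without delay. The comparison asks whether the tissue already differed before treatment.

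A skeletal muscle fiber is filled with sarcomeres, in which myosin thick filaments pull on actin thin filaments that are anchored in Z-discs. A nerve impulse opens a voltage sensor in the fiber membrane, which gates the release of calcium from the sarcoplasmic reticulum, and calcium binding to troponin frees actin for myosin. Fast and slow fibers use different genes for the same parts, developmental myosins mark embryonic, newborn or regenerating fibers, and a thin sheet of skeletal muscle, the panniculus carnosus, lies beneath the skin where subcutaneous tumors are grown.

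Sequence upstream of the transcription start is shown for 5 members, because muscle genes are known for short elements there that muscle transcription factors bind. Acta1 is the most abundant member per length, Myh1 and Mybpc1 passed the test, Myh4 is the leading myosin, and Myh8 is a developmental myosin. Sequences are from RefSeq on GRCm38.p6 and run 5′ to 3′ on the strand of the gene up to the base before the listed start, except for Myh1, which stops short of the 50 bases where the gene annotation already begins the gene. Capitals mark CAGCTG (an E-box that muscle regulatory factors bind), the MEF2 motif, the CArG box (bound by serum response factor) and TATAAA, where present on either strand. The windows are chr8:123894776-123895025 (minus strand) for Acta1, chr11:67199852-67200051 (plus) for Myh1, chr11:67237562-67237811 (plus) for Myh4, chr11:67276874-67277123 (plus) for Myh8 and chr10:88605153-88605402 (minus) for Mybpc1.
Acta1: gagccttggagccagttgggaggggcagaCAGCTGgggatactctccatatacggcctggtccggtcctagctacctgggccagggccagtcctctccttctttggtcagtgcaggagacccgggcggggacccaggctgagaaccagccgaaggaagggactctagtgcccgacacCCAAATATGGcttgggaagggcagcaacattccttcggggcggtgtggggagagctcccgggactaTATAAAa
Myh1: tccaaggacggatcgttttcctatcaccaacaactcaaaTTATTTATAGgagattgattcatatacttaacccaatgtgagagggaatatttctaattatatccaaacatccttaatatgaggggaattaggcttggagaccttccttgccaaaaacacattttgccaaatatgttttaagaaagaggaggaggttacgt
Myh4: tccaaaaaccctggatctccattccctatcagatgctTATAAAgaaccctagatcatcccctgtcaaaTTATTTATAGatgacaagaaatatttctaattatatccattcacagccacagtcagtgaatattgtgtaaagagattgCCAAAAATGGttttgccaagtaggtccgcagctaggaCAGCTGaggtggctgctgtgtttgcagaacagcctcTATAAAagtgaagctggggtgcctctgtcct
Myh8: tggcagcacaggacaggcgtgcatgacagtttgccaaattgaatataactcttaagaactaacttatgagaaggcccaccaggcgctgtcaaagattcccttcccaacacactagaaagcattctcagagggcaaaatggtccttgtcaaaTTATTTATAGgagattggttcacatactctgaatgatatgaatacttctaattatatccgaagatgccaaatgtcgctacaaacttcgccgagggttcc
Mybpc1: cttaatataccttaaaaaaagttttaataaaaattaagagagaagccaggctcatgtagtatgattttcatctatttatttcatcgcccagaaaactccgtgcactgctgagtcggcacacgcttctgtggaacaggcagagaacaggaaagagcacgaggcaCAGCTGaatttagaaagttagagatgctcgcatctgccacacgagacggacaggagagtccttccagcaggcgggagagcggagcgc

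The same 10 letters, TTATTTATAG, stood upstream of Myh1, Myh4 and Myh8, ending 202, 173 and 90 bases before the start. Of 27025 promoters with 1 window each, 34 (0.126%) held these letters on either strand. The 3 genes lie side by side on chromosome 11 with Myh3 and Myh2, all on the plus strand, in the order Myh3 (chr11:67078300-67102291), Myh2 (chr11:67171027-67197517), Myh1 (chr11:67200052-67224575), Myh4 (chr11:67238029-67260446) and Myh8 (chr11:67277124-67308634). Slow myosin Myh7 lies apart, at chr14:54970684-54994626 on the minus strand.

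Upstream windows were available for 30 of the 39 members. Some of them, such as those of Myl1, Mylpf, Ckm, Tnni1, Tnnt1 and Myom1, lie inside the gene by the gene annotation. Those windows were counted in full. CAGCTG was found in 12 of the 30 (40%), against 12.8% of all promoters in a window of the same 250 bases. The MEF2 motif was found in 6 (20%, against 3.01%), in Myh1, Myh4, Myh8, Ttn, Xirp2 and Pvalb. In Myh1, Myh4 and Myh8, neighbors on chromosome 11, the match is the same TTATTTATAG, so they are not independent cases. A CArG box stood in 4 (13.3%, against 1.4%), namely Acta1, Myh4, Ldb3 and Myom1. TATAAA was present in 7 (23.3%, against 13%), and it overlaps the MEF2 motif in Myh1, Myh4 and Myh8. The general E-box CANNTG, which includes CAGCTG, was found in 25 (83.3%, against 66%). These are letter matches, and no binding was measured.

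Muscle genes made up a small part of every tumor. The 39 members held 0.175% ± 0.0658 (SD, n = 6) of the estimated counts in responders and 0.0911% ± 0.0140 (SD, n = 4) in non-responders, out of 23374649 to 38042544 counts per tumor. Their summed level, in counts relative to the library total (CPM), was 1163, 1847, 2207, 1027, 2749 and 1482 in the responders, in order of their number. The non-responders, in the same order, had 785, 1086, 955 and 816 CPM. Responder 4 lay below non-responder 2, so the groups overlapped, and the other 5 responders were above all non-responders. In bulk tissue, fewer muscle fibers and less RNA per fiber cannot be told apart.

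**Figure D1:**
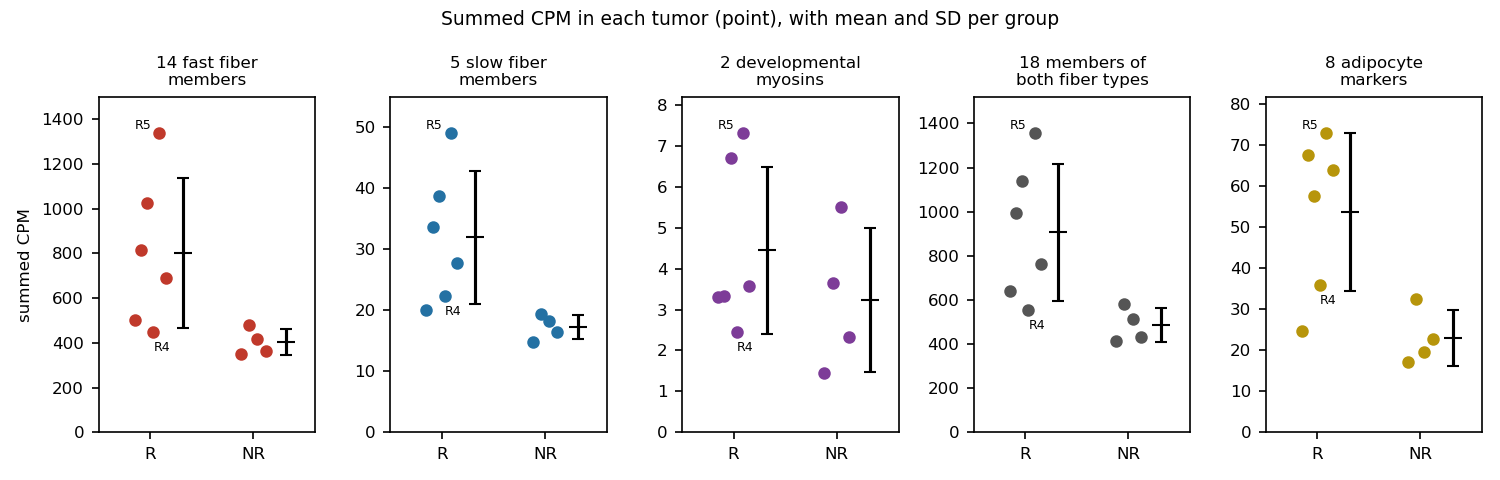
Summed CPM of the members in each of the 10 tumors (points), with 1 panel each for the fast, slow and developmental genes, the genes of both fiber types and 8 adipocyte markers; R and NR are responders and non-responders, and bars give the mean and SD. Responder 5 (R5) is highest in all 5 panels, and the slow panel is the only one of them in which the groups do not overlap. The greater part of the slow sum is Mybpc1, which fast fibers also make, and Tnni1, Tnnt1, Tnnc1 and Myh7 each overlap between the groups.

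Of the 39 members, 13 (33.3%) were higher in responders at an adjusted p under 0.05 (edgeR quasi-likelihood test with Benjamini-Hochberg adjustment over 16041 genes), beside 4.71% of all genes tested. None was lower, beside 3.35% of all genes. The median log2 fold change over the members was 0.98 and ran from -0.24 for Myh7 to 1.45 for Tcap, against a median of -0.01 over all genes tested. A higher estimate in responders was found for 38 of the 39 members, beside 48.2% of all genes tested. An unadjusted p under 0.05 was found for 32, all higher in responders, where 15.6% of all genes were higher at that p and 29.1% passed it in either direction. For 8 members every responder lay above every non-responder, beside 5.84% of all genes tested. The number of members called depended on single tumors. It was 8 without responder 1, 0 without responder 2, 0 without responder 3, 27 without responder 4, 2 without responder 5, 4 without responder 6, 0 without non-responder 1, 10 without non-responder 2, 1 without non-responder 3 and 0 without non-responder 4. Over all genes, in both directions, these fits gave 553, 244, 17, 1619, 412 and 735 calls as each responder was left out in order. They gave 16, 1897, 366 and 0 as each non-responder was left out, against 1293 with all tumors. The unadjusted count of members stayed between 28 and 34 across these 10 fits, and the median log2 fold change of the members stayed between 0.79 and 1.10. Each of the 13 kept its call in 1 to 5 of the 10 fits that leave out a tumor. DESeq2 called 26 of the 38 members it gave an adjusted p (68.4%), beside 9.95% of all genes higher by that tool. With limma-voom 2 of 39 were called (5.13%), near its share of 3.93% over all genes.

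**Figure D2:**
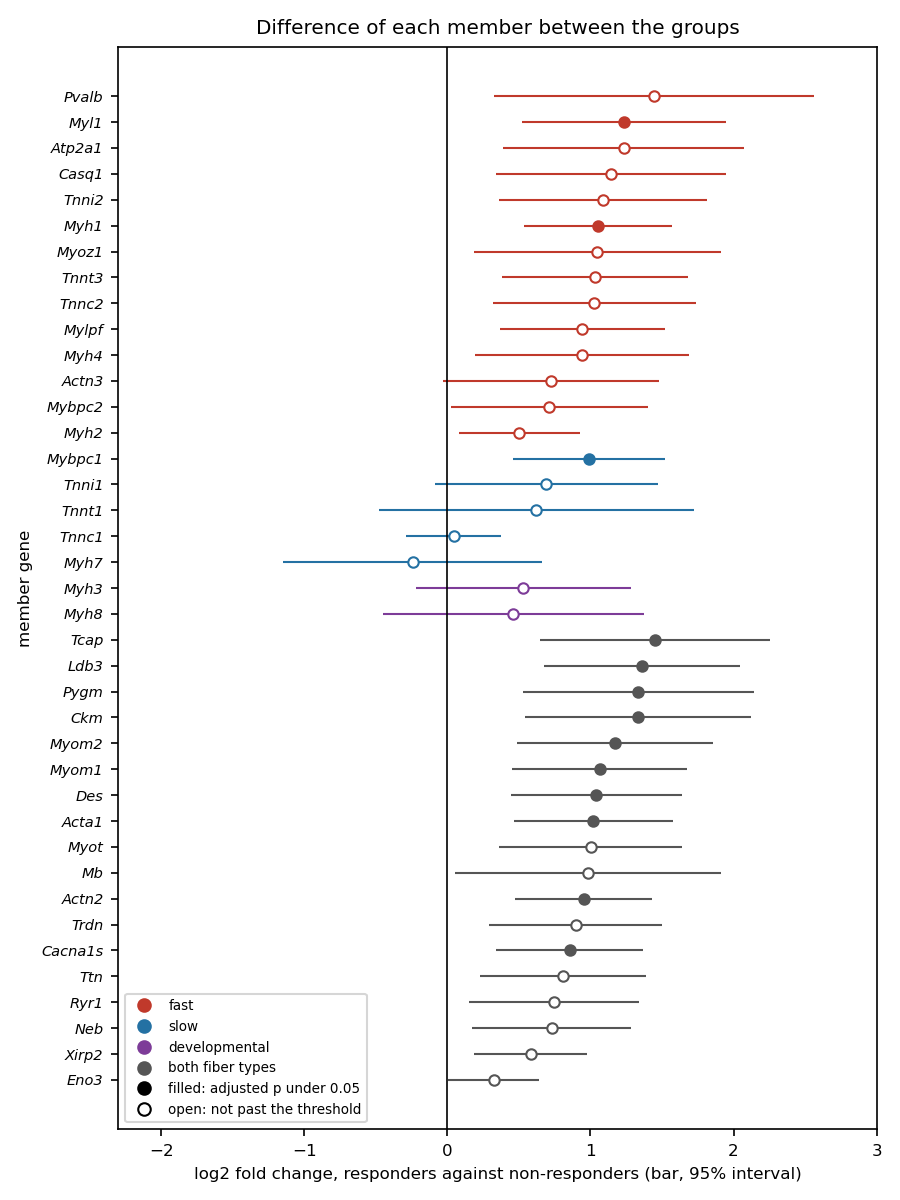
Log2 fold change of each of the 39 members (responders minus non-responders), with 95% confidence intervals from the edgeR fit, grouped by fiber type; filled points passed an adjusted p of 0.05. All estimates but that of Myh7 are above 0, and 13 passed.

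Fast fiber genes formed the largest class next to the shared one. Of the 14 fast genes, 2 (Myh1 and Myl1) were higher in responders at an adjusted p under 0.05, beside 4.71% of all genes tested. All 14 had a higher estimate, beside 48.2% of all genes. An unadjusted p under 0.05 was found for 13, where 15.6% of all genes were higher at that p. The median log2 fold change of the class was 1.04, with a range from 0.50 for Myh2 to 1.45 for Pvalb. Summed over the class, the responders had 802 ± 336 CPM (SD, n = 6) and the non-responders 404 ± 58.0 CPM (SD, n = 4).

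Myh1, the myosin heavy chain of IIX fibers, measured 90.3, 150, 162, 137, 191 and 110 CPM in the responders and 45.5, 73.6, 96.0 and 55.5 CPM in the non-responders, each in order of tumor number, as in all such lists here. Responder 1 lay just below non-responder 3, and the other 5 responders were above every non-responder. Its log2 fold change was 1.05 ± 0.24 (SE, adjusted p = 0.0330). Near-identical paralogs share sequence with it: 42.9% of its 31-base words also occur in another gene, most of them in Myh2, so counts of these myosins are uncertain where reads could be split.

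Myl1, an essential light chain of fast myosin, ran from 23.2 CPM in responder 4 to 81.8 CPM in responder 5, with a median of 40.7 CPM. The non-responders measured 15.5, 20.4, 16.7 and 21.7 CPM, so every responder was above them. The log2 fold change was 1.23 ± 0.33 (SE, adjusted p = 0.0446).

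Among fast genes that missed the threshold, Mylpf, the phosphorylatable fast light chain, came closest. Responders measured 31.99, 45.1, 57.9, 31.6, 84.3 and 40.1 CPM and non-responders 20.9, 28.4, 23.5 and 28.1 CPM. The groups did not overlap, with a log2 fold change of 0.94 ± 0.26 (SE, adjusted p = 0.0504).

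Myh4, the heavy chain of IIB fibers, the fastest type of the mouse, had the highest mean level per length of the 6 myosin heavy chains. It measured 141, 230, 319, 86.9, 368 and 217 CPM in responders and 116, 153, 102 and 101 CPM in non-responders. Responder 4 was the lowest of all 10 tumors, although its Myh1 was above that of every non-responder. The log2 fold change was 0.94 ± 0.34 (SE, adjusted p = 0.0972).

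The fast troponins make the thin filament sensitive to calcium. Tnnc2, the calcium-binding subunit, measured 18.4, 29.9, 42.3, 14.7, 53.9 and 25.8 CPM in responders and 13.8, 16.9, 13.6 and 16.2 CPM in non-responders, with a log2 fold change of 1.03 and an adjusted p of 0.0678. Responder 4 lay inside the range of the non-responders. Of the words of Tnnc2, 59.0% are shared with Ube2c, a cell division gene that overlaps it on the opposite strand, and the strand setting of the counting is not given in the sources used here. The subunits with no shared words, Tnnt3 (1.03, adjusted p = 0.0539) and Tnni2 (1.09, adjusted p = 0.0632), had log2 fold changes of similar size. Members outside the myosin heavy chains and troponins also share words, among them Mb (27.7%), Atp2a1 (20.3%), Cacna1s (18.1%), Myl1 (14.5%) and Ckm (13.6%). In each of these but Myl1, most are shared with a gene that overlaps on the opposite strand.

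The remaining fast genes are structural and calcium-cycling parts that all missed the threshold. Myh2, the IIA heavy chain, had a log2 fold change of 0.50 (adjusted p = 0.114), and Mybpc2, the fast myosin-binding protein C, one of 0.71 (adjusted p = 0.155). In the Z-disc, the fast alpha-actinin Actn3 gave 0.73 (adjusted p = 0.189), and Myoz1, which binds alpha-actinin, 1.05 (adjusted p = 0.108). The fast calcium genes were Atp2a1, the pump that returns calcium to the reticulum (1.23, adjusted p = 0.0659), Casq1, the store's calcium buffer (1.14, adjusted p = 0.0717), and Pvalb, a soluble calcium buffer of the fiber (1.45, adjusted p = 0.0909). Pvalb ran from 1.62 CPM in responder 4 to 15.2 CPM in responder 5, and responder 4 was below every non-responder (1.73 to 2.58 CPM).

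Slow fiber genes were few and, apart from Mybpc1, near the bottom of the members in CPM. Of the 5, only Mybpc1 passed the test, beside 4.71% of all genes tested. Only Mybpc1 had an unadjusted p under 0.05, where 15.6% of all genes were higher at that p. The median log2 fold change of the 5 was 0.62. The class sum, of which Mybpc1 was the greater part, was 31.9 ± 10.9 CPM for responders (SD, n = 6) against 17.2 ± 1.96 CPM for non-responders (SD, n = 4).

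Mybpc1, the slow-type myosin-binding protein C, which fast fibers also make, measured 16.98, 30.5, 33.4, 19.2, 44.3 and 24.5 CPM in responders and 12.8, 16.1, 14.3 and 13.5 CPM in non-responders. Every responder was above every non-responder. The log2 fold change was 0.99 ± 0.24 (SE, adjusted p = 0.0378).

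Tnnc1, the troponin C of slow and heart muscle, measured 1.80, 1.37, 1.41, 1.25, 1.45 and 1.17 CPM in responders and 1.33, 1.34, 1.301 and 1.48 CPM in non-responders. The groups overlapped. Its log2 fold change was 0.04, with a 95% interval from -0.29 to 0.37 (adjusted p = 0.915).

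Tnni1 and Tnnt1, the slow inhibitory and tropomyosin-binding troponins, rested on 6 to 34 and 8 to 80 estimated counts per tumor, with log2 fold changes of 0.69 (adjusted p = 0.221) and 0.62 (adjusted p = 0.439). Myh7, the slow myosin heavy chain, had 3.04 to 16.0 counts per tumor and a log2 fold change of -0.24, with an interval from -1.15 to 0.66 (adjusted p = 0.738). No difference in these 3 genes was detected, and a change of more than 1 log2 unit lies inside each interval.

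Both developmental myosins were low and neither passed the test. Myh8, the perinatal heavy chain, measured 2.996, 2.90, 6.23, 2.08, 6.44 and 3.18 CPM in responders and 1.17, 3.32, 5.03 and 2.08 CPM in non-responders (log2 fold change 0.46 ± 0.42, adjusted p = 0.495). Responders 3 and 5 were the highest and non-responder 3 was next, so the groups overlapped. Myh3, the embryonic heavy chain, measured 0.300, 0.437, 0.482, 0.363, 0.867 and 0.391 CPM in responders and 0.283, 0.336, 0.477 and 0.241 CPM in non-responders (0.53 ± 0.34, adjusted p = 0.329). The count of 0 calls was the same in DESeq2 and limma-voom, and at an unadjusted p under 0.05 it was 0 as well.

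Genes used by both fiber types held 10 of the 13 calls, so 10 of 18 passed, beside 4.71% of all genes tested. Of the 18, all had a higher estimate in responders, beside 48.2% of all genes, with a median log2 fold change of 0.99. All 18 had an unadjusted p under 0.05, where 15.6% of all genes were higher at that p. Whether one class moved more than another was not tested.

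Acta1, skeletal alpha-actin, the core of the thin filament, measured 195, 283, 358, 167, 449 and 217 CPM in responders and 120, 154, 143 and 131 CPM in non-responders. Every responder was above every non-responder, responder 4 by the least. Its log2 fold change was 1.02 ± 0.25 (SE, adjusted p = 0.0391). Neb, the long ruler protein of the thin filament, gave 0.73 and missed the threshold (adjusted p = 0.0875).

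Z-disc genes supplied 4 calls among 9 members of that role, beside 4.71% of all genes tested. Ldb3, which links alpha-actinin to signaling proteins at the Z-disc, measured 9.65, 15.02, 21.8, 8.25, 25.9 and 12.7 CPM in responders and 5.01, 7.13, 6.46 and 5.70 CPM in non-responders, with a log2 fold change of 1.36 ± 0.31 (SE, adjusted p = 0.0331). All responders were above all non-responders.

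Actn2, the alpha-actinin that crosslinks actin in all fibers, measured 20.9, 31.8, 36.1, 20.5, 43.3 and 22.1 CPM in responders and 13.5, 14.6, 17.6 and 14.6 CPM in non-responders (0.95 ± 0.22, SE, adjusted p = 0.0331). Tcap, which caps titin at the Z-disc, measured 3.96, 8.49, 11.7, 4.13, 15.2 and 7.23 CPM in responders and 2.91, 3.17, 3.34 and 2.96 CPM in non-responders. Its log2 fold change of 1.45 ± 0.37 (SE, adjusted p = 0.0406) was the highest of the members. Neither gene overlapped between the groups, and the non-responders lay within a narrow band for both.

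Des, desmin, the intermediate filament that ties neighboring Z-discs together, measured 80.3, 137, 148, 63.5, 152 and 96.9 CPM in responders and 37.5, 73.3, 63.5 and 45.5 CPM in non-responders. Responder 4 fell below non-responder 2, so the groups overlapped. The log2 fold change was 1.04 ± 0.27 (SE, adjusted p = 0.0440). Des is not restricted to skeletal muscle and is also made in smooth and heart muscle.

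Titin and the other Z-disc members missed the threshold. Ttn, the spring that spans the sarcomere from Z-disc to M-band, gave a log2 fold change of 0.81 (adjusted p = 0.0761), Myot 1.001 (adjusted p = 0.0561) and Xirp2, an actin-binding repeat protein, 0.58 (adjusted p = 0.0657).

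The M-band crosslinks thick filaments at the center of the sarcomere. Both of its members were higher in responders, beside 4.71% of all genes tested. Myom1 measured 9.02, 12.8, 14.6, 6.93, 20.4 and 10.1 CPM in responders and 5.01, 7.58, 6.24 and 4.77 CPM in non-responders (1.06 ± 0.28, SE, adjusted p = 0.0437). Only responder 4 fell within the non-responder range. Myom2 ran from 7.85 to 24.8 CPM in responders (median 12.9) against 4.93, 8.06, 8.45 and 4.16 CPM in non-responders, with a log2 fold change of 1.17 (adjusted p = 0.0453).

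Calcium release genes of both fiber types rested on Cacna1s, Ryr1 and Trdn. Cacna1s, the voltage sensor, was above every non-responder in every responder, at 6.29 to 14.5 CPM (median 8.57) against 4.28, 5.97, 5.46 and 4.10 CPM (0.86 ± 0.23, SE, adjusted p = 0.0477). Ryr1, the release channel it opens, had a log2 fold change of 0.74 and did not pass (adjusted p = 0.0997). Trdn, triadin, which holds calsequestrin at that channel, gave 0.90 (adjusted p = 0.0641). Over all 6 calcium handling members, including the 3 fast ones, 1 passed, beside 4.71% of all genes tested. All 6 had an unadjusted p under 0.05, where 15.6% of all genes were higher at that p.

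Energy genes gave 2 calls among 4, beside 4.71% of all genes tested. Ckm, muscle creatine kinase, which regenerates ATP from phosphocreatine, ran from 30.5 to 119 CPM in responders (median 59.2) against 24.9, 31.4, 20.6 and 27.3 CPM in non-responders, with a log2 fold change of 1.33 ± 0.36 (SE, adjusted p = 0.0464). Pygm, muscle glycogen phosphorylase, ran from 5.05 to 22.8 CPM (median 10.8) against 4.44, 5.64, 4.68 and 4.31 CPM, with a log2 fold change of 1.34 (adjusted p = 0.0488). In both genes responder 4 alone fell within the non-responder range.

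Eno3, the muscle enolase of glycolysis, measured 56.0, 58.9, 69.8, 49.4, 89.9 and 61.2 CPM in responders and 58.4, 46.7, 47.9 and 52.4 CPM in non-responders, with a log2 fold change of 0.32 (adjusted p = 0.166), the lowest of the 18. Mb, myoglobin, which stores oxygen, was low at 0.564 to 2.91 CPM over the 10 tumors (0.98, adjusted p = 0.149).

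**Figure D3:**
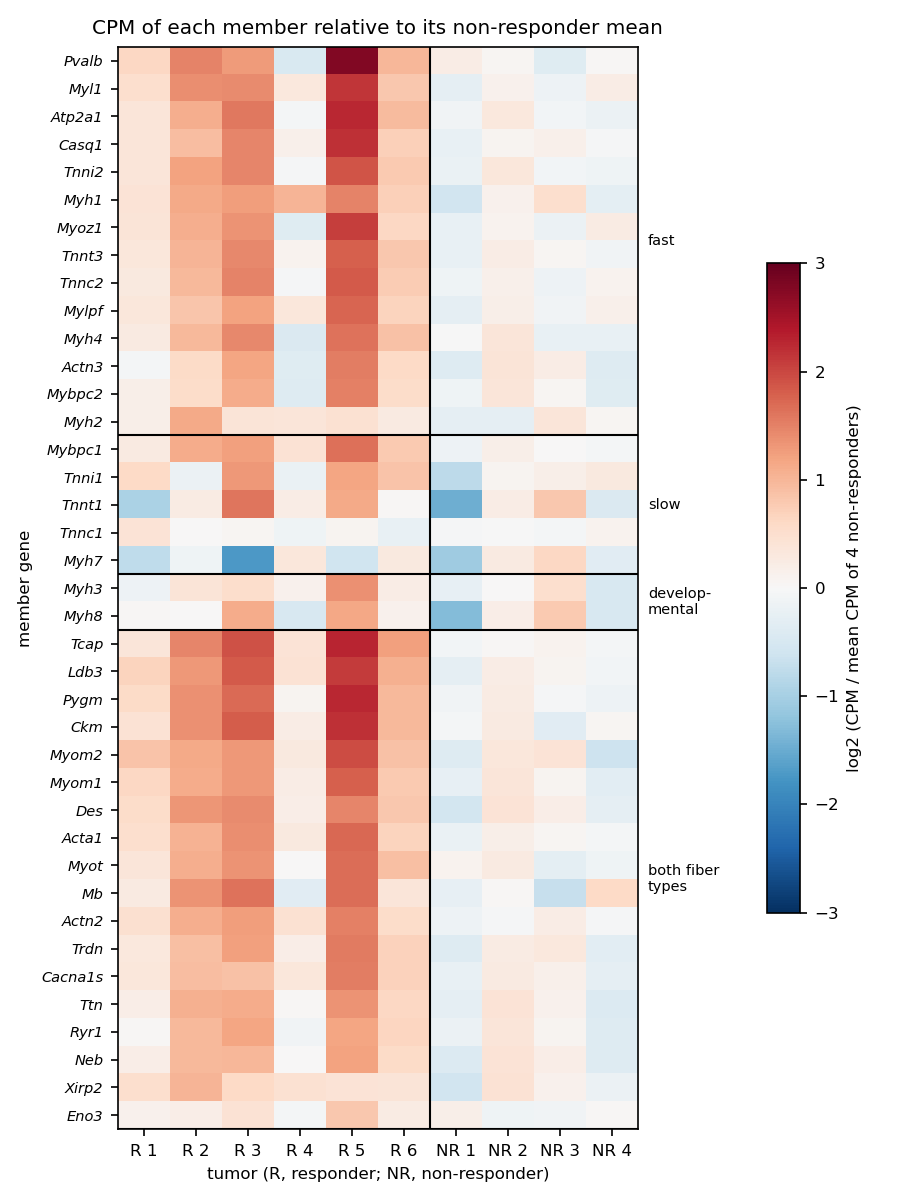
Log2 ratio of each member (lines of the grid, ordered by fiber type) to its mean over the 4 non-responders, in each of the 10 tumors (columns), on a color scale from -3 to 3. Responders 2, 3 and 5 stand out across most members, and responder 4 is close to the non-responders.

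Most members were highest in the same tumor. Responder 5 was the highest for 33 of the 39, while Myh2 and Xirp2 were highest in responder 2, Tnnt1 and Tnni1 in responder 3, Tnnc1 in responder 1 and Myh7 in non-responder 3. A non-responder was the lowest for 33, which was non-responder 1 for 18 of them. The median ratio of a member to its non-responder mean was 1.28, 2.06, 2.46, 1.09, 3.11 and 1.63 in the responders. Responder 4 thus lay near the non-responder mean, whose own tumors had median ratios of 0.853, 1.17, 1.06 and 0.910. The highest ratio of any member in responder 4 was that of Myh1, at 2.02.

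To compare levels between genes, counts were divided by merged exon length and scaled to the same total in every tumor (TPM). Acta1 was the most abundant member, at 555 ± 212 TPM in responders (SD, n = 6) and 276 ± 29.9 TPM in non-responders (SD, n = 4). Over all 10 tumors, mean levels followed at 113 TPM for Mylpf, 104 TPM for Eno3, 94.2 TPM for Tnnc2, 93.7 TPM for Myh4, 93.5 TPM for Tnnt3 and 73.4 TPM for Des. The means from Mylpf to Tnnt3 differed by less than the SD between responders of each, and the order was not the same in both groups, since Eno3 was above Mylpf in non-responders (91.2 against 73.2 TPM) and below it in responders (113 against 140 TPM). The lowest levels were those of Myh8 (0.924 TPM), Tnni1 (0.494 TPM), Myh3 (0.212 TPM) and Myh7 (0.109 TPM).

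**Figure D4:**
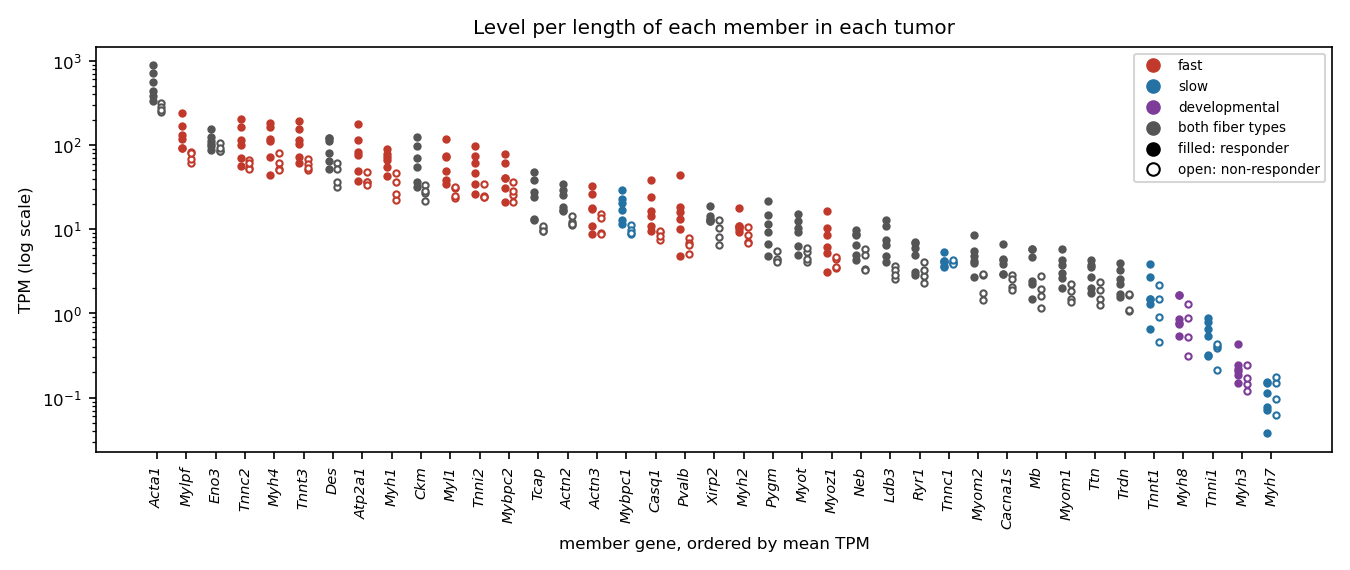
Level per length (TPM, log axis) of the 39 members in each of the 10 tumors (filled for responders, open for non-responders), ordered by mean level and colored by fiber type. Acta1 is at the top, and the lowest 5 members are slow or developmental genes.

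Fast genes accounted for 44.2% to 50.2% of the summed TPM of the members across tumors, genes of both fiber types for 48.5% to 54.2%, slow genes for 1.22% to 1.73% and developmental genes for 0.0512% to 0.161%. Among the 6 myosin heavy chains, Myh4 made up 36.3% to 66.9% of the TPM, Myh1 24.8% to 54.3% and Myh2 3.84% to 9.81%. Myh8, Myh3 and Myh7 reached at most 1.18%, 0.218% and 0.160%. Responder 4 was the one tumor with more Myh1 (54.3%) than Myh4 (36.3%), and non-responder 3 came next with 41.9% and 47.0%.

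**Figure D5:**
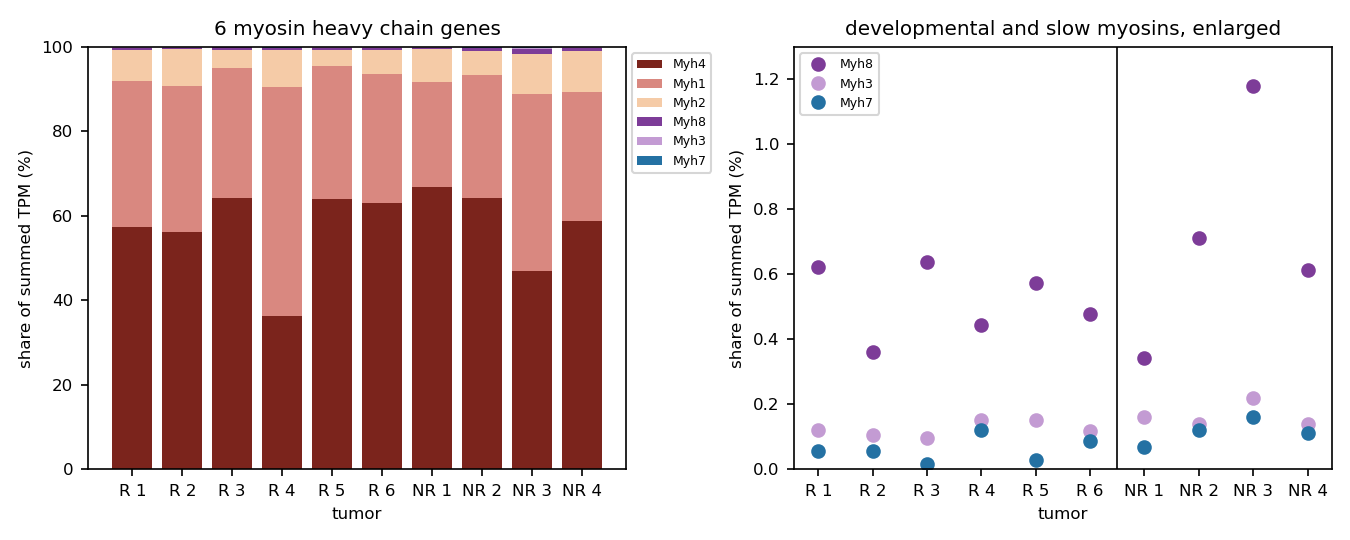
Share (percent) of each of the 6 myosin heavy chain genes in their summed TPM, as stacked bars for each of the 10 tumors, with Myh8, Myh3 and Myh7 enlarged as points beside them. Myh4 is the largest share in all tumors except responder 4, where Myh1 reaches 54.3%.

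In pairs of fast and slow genes for one part, the fast gene was more abundant per length in every tumor. The ratio of Tnnt3 to Tnnt1 was between 27.5 and 112, that of Tnni2 to Tnni1 between 56.2 and 193, and that of Mybpc2 to Mybpc1 between 1.64 and 3.24. Tnnc2 exceeded Tnnc1 by 13.2 to 48.6, with the overlap of Tnnc2 and Ube2c noted above.

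Other muscle genes, taken from lists that also were written with results of these data known, were examined beside the members. Of 69 such genes, 60 passed the filter, and 53 had a higher estimate in responders, beside 48.2% of all genes tested. At an adjusted p under 0.05, 9 were higher, beside 4.71% of all genes, and 1 was lower, beside 3.35%. The median log2 fold change was 0.76. In both directions together, leaving out responders 1 to 6 in turn gave 6, 0, 0, 28, 2 and 6 calls. Leaving out non-responders 1 to 4 in turn gave 0, 15, 1 and 0. Lower in responders were 1 of the 28 without responder 4, 2 of the 15 without non-responder 2 and the 1 call without non-responder 3. Calls over all genes in the same fits are given above with those of the members.

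Of 26 sarcomere and cytoskeleton genes tested, 7 were higher and 25 had a higher estimate (median 0.78), beside 4.71% and 48.2% of all genes. The 3 with the smallest p were Trim72, which repairs the fiber membrane (2.22 to 3.95 CPM in non-responders, 4.65 to 10.9 CPM in responders, 1.23 ± 0.27, SE, adjusted p = 0.0310), Smyd1, a methyltransferase needed for myosin assembly (1.25, adjusted p = 0.0371), and Hspb6, a small heat shock protein (0.60, adjusted p = 0.0378). Flnc, filamin C, the most abundant of the list in CPM, was the one with a lower estimate (-0.12, adjusted p = 0.443). Myl2 and Myl3, light chains of slow and heart muscle, reached at most 3.36 and 1.01 estimated counts in any tumor and were not tested.

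Of 18 calcium and excitation genes, 2 were higher, beside 4.71% of all genes. They were Jph2, which ties the reticulum to the membrane (1.45, adjusted p = 0.0365), and Jsrp1, a protein of that junction (1.24, adjusted p = 0.0443). Chrnb1, a subunit of the acetylcholine receptor, was lower, at 14.4 to 18.4 CPM in responders against 31.7, 21.0, 17.98 and 27.0 CPM in non-responders (-0.61 ± 0.14, SE, adjusted p = 0.0330). Its groups overlapped through responder 4 and non-responder 3.

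None of 11 energy genes passed in edgeR. A higher estimate was found for 9 (48.2% of all genes) and an unadjusted p under 0.05 for 7 (29.1% in either direction). DESeq2 called 6, beside 9.95% of all genes higher by that tool, and limma-voom 0, beside 3.93%. Pfkm, muscle phosphofructokinase, the most abundant of them in CPM, gave 0.28 (adjusted p = 0.0861). Of 10 myogenic regulators, 5 were tested and none passed, with 2 at an unadjusted p under 0.05, 1 call in DESeq2 and 0 in limma-voom. Mef2c, a MEF2 factor that other cell types also make, was the most abundant, and averaged 16.4 ± 3.84 CPM over responders (SD, n = 6) against 11.1 ± 1.75 CPM over non-responders (SD, n = 4, log2 fold change 0.57, adjusted p = 0.0615). Pax7, Myf5 and Myod1, which mark satellite cells and myoblasts, did not pass the filter, with at most 10, 4 and 14 counts in any tumor.

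Markers of other cells were counted in the same tumors. Of 8 adipocyte genes, 7 were tested and all 7 had a higher estimate in responders (median log2 fold change 2.19), 1 of which, Pck1, passed (2.44, adjusted p = 0.0492). All 7 had an unadjusted p under 0.05, DESeq2 called all 7 and limma-voom 0, and the edgeR count was 4 without responder 1, 4 without responder 4, 7 without non-responder 2 and 0 without any 1 of the other 7 tumors. The summed adipocyte level was 24.7 to 72.9 CPM in responders and 17.2 to 32.6 CPM in non-responders, highest in responder 5, which was also the highest tumor for most muscle members. All 5 leukocyte markers had a higher estimate and 3 passed, Adgre1 (0.87, adjusted p = 0.0310), Itgam (0.60, adjusted p = 0.0330) and Ptprc (0.60, adjusted p = 0.0413), with sums of 679 to 1159 CPM against 419 to 637 CPM. All 5 leukocyte markers had an unadjusted p under 0.05, DESeq2 called 5 and limma-voom 3. Over all genes, 4.71% were called higher in edgeR, 9.95% in DESeq2 and 3.93% in limma-voom. At an unadjusted p under 0.05 in edgeR, 15.6% of all genes were higher. Leaving out responders 1 to 6 in turn gave 1, 0, 0, 5, 2 and 2 leukocyte calls in edgeR. Leaving out non-responders 1 to 4 in turn gave 0, 3, 0 and 0. The part of the adipocyte and leukocyte markers in the result was not tested.

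Smooth muscle markers summed to 136 to 162 CPM in responders and 122 to 140 CPM in non-responders, with 0 of 6 tested called in edgeR, 1 at an unadjusted p under 0.05, 1 in DESeq2 and 0 in limma-voom. The gene at an unadjusted p under 0.05 was Acta2, with an edgeR log2 fold change of 0.97 (adjusted p = 0.0514). Heart muscle markers summed to 6.26 to 9.77 CPM and 6.24 to 10.4 CPM, with 0 of 5 tested called in each of the 3 tools, 2 at an unadjusted p under 0.05, and Myl7 at 0 in every tumor. Those 2 went opposite ways, with log2 fold changes of 0.67 for Tnni3 and -0.52 for Nppb. Keratinocyte markers summed to 3.96 to 5.53 CPM and 3.16 to 10.4 CPM (2 of 8 tested, 0 called in edgeR, 1 at an unadjusted p under 0.05, 1 in DESeq2, 0 in limma-voom). Schwann cell markers summed to 24.1 to 29.2 CPM and 25.8 to 26.3 CPM (4 of 5 tested, 0 called in each tool and 0 at an unadjusted p under 0.05). Over all genes, 29.1% had an unadjusted p under 0.05 in either direction, and the shares called by each tool are given with the leukocyte markers.

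For the labelled colorectal carcinoma, 4 of 9 intestinal epithelial markers were tested and 0 were called in edgeR, DESeq2 and limma-voom. An unadjusted p under 0.05 was found for 3, beside 29.1% of all genes in either direction. Krt20 was the most abundant, and averaged 29.1 ± 9.80 CPM over responders (SD, n = 6) against 52.9 ± 18.5 CPM over non-responders (SD, n = 4, log2 fold change -0.86, adjusted p = 0.0834). The summed level was 17.5 to 42.0 CPM and 40.3 to 84.8 CPM, and it was lowest in responder 5. Epcam, Krt8, Krt18, Cdx1 and Vil1 had at most 19, 14, 3, 1 and 4 counts in any tumor and did not pass the filter.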

How the data were processed

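The authors pseudoaligned polyA RNA-seq reads of 10 tumors with Kallisto to mm10 (GRCm38) and summed transcripts to genes with tximport, which gave the deposited estimated counts, not scaled to depth and fractional for 45.1% of values. The annotation release, tximport scaling and strand setting are not given in the sources used here. Identifiers without a gene name (9633, with 1.04% to 1.23% of a tumor's counts) stayed in the fit. Groups follow the response in the labels, and replicate numbers, in accession order, pair nothing. The labels name neither separate mice nor a batch, so p-values measure the spread between these tumors.

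Counts were rounded and tested in R 4.3.3 with edgeR 4.0.16 (filterByExpr with minimum count 10 and minimum total 15, TMM, quasi-likelihood test, two-sided, Benjamini-Hochberg over 16041 genes, threshold 0.05), after a test on simulated data. CPM is relative to the TMM-scaled total. The SE is the log2 fold change over the square root of F. TPM used merged exon lengths of GENCODE GRCm38. Alternatives were DESeq2 1.42.0, limma 3.58.1, other scalings and filters, and each tumor left out. A count of 3 was 0.0782 to 0.130 CPM, for counting error only.

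Members and lists were chosen with earlier results of these data known. Full values are given for the 8 called members with the smallest p, the most abundant per length in each class and both developmental myosins, and of each other list for up to 3 called genes with the smallest p and the most abundant gene.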

Additional observations from a re-analysis of the deposited data

Results flagged for a closer look

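Responder 2 stood apart from the other 5 responders for Myh2, the IIA myosin heavy chain. Its log2 CPM was 5.39, while the other 5 lay between 4.44 and 4.72, a gap of 0.707 of the range of the group. Xirp2, an actin-binding repeat protein, also stood apart in responder 2, with a log2 CPM of 6.23 against 5.58 to 5.81 in the other 5 responders and a gap of 0.651 of the range. In all, 88 groups of values were examined and 2 of them, both through responder 2, held a tumor that stood apart, where chance alone is expected to give about 4.4.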

How the results depend on the processing

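Under the alternatives run, the direction held for all members but Myh7 and Tnnc1, and the number of calls varied widely. The 13 member calls became 26 with DESeq2, 2 with limma-voom and 34 at an adjusted p under 0.25, and ranged from 0 to 27 when each tumor was left out. The 10 calls among other muscle genes, in both directions, became 32, 3 and 45 under the same 3 settings, with a range from 0 to 28. Over all genes, in both directions, the 1293 calls became 2573 with DESeq2, 1082 with limma-voom and 6043 at an adjusted p under 0.25, with a range from 0 without non-responder 4 to 1897. These fits over all genes were chosen after seeing the data. Other scalings, low-count filters and the robust fit gave 11 to 15 member calls. The median log2 fold change of 0.98 stayed between 0.79 and 1.10 when each tumor was left out and was 0.87 with limma-voom. Direction turned for 2 genes, with Myh7 ranging from -0.46 to 0.0066 and Tnnc1 from -0.036 to 0.094 when each tumor was left out. With lengths of the longest transcript, the summed level of the members was 1410 TPM in place of 1510 TPM. The lowest members, Myh3 and Myh7, rested on 7.01 to 31.01 and 3.04 to 16.0 estimated counts per tumor. No paired analysis was possible because the numbers of the tumors only name them.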
